A study of Rattus norvegicus with 12 samples.

Results

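The 8 genes described here encode the matrix that forms around the oocyte before ovulation, its receptor, and the epidermal growth factor (EGF)-like signals that set off its assembly. They are Has2, Tnfaip6, Ptx3, Cd44 and Vcan on the matrix side, and Areg, Ereg and Btc on the signal side. They were found by their names in the deposited gene table, which gave 1 gene for each name, 8 of 19730 genes in all. The rows were matched by name and not by a measured value, but the 8 genes were chosen with earlier results of these data known.

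Whole-ovary RNA from female Sprague Dawley rats, wild type in genotype and in postnatal week 15, was sequenced in 12 libraries, 1 per rat. The 4 Control rats were untreated and fed standard food. The 4 PCOS rats, a model of polycystic ovary syndrome, had received letrozole, an aromatase inhibitor, at 1 mg/kg/day for 30 days together with a high-fat diet. The 4 PCOS-MV rats had received the same and then mogroside V (MV), a sweet triterpene glycoside of monk fruit, at 600 mg/kg/day for 30 days. By the paper's methods, all rats were killed when the MV period ended. The PCOS ovaries were thus collected about 30 days after letrozole and the high-fat diet, not during them. The stage of the estrous cycle at collection was not given in the sources used here.

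In a preovulatory follicle, the surge of luteinizing hormone (LH) acts on mural granulosa cells, which release the EGF-like factors amphiregulin (Areg), epiregulin (Ereg) and betacellulin (Btc). These bind the EGF receptor on the cumulus cells around the oocyte. The cumulus cells then make hyaluronan with hyaluronan synthase 2 (Has2), and the hyaluronan is cross-linked by the products of Tnfaip6 and Ptx3. The proteoglycan versican (Vcan) binds hyaluronan and is cut by the protease Adamts1, while Cd44 is the cell-surface receptor for hyaluronan. The induction of Has2, Tnfaip6 and Ptx3 in cumulus cells lasts hours within a cycle. Cd44 and Vcan are also made by other cells of the ovary. Which cells gave the Has2, Tnfaip6 and Ptx3 RNA of whole ovary was not tested, so their levels here are not a measure of cumulus cells alone.

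Levels are given as FPKM, fragments per kilobase of transcript scaled to the mapped total of the library, so that genes can be compared per length. From the spacing of low FPKM values the depth was estimated at about 30500000 to 37300000 fragments per library, which assumes the transcript lengths listed in the file. Control replicate 3 stood apart. Its summed FPKM of 4 ciliated oviduct markers (Dnah5, Dnai1, Rsph1, Ccdc39) was 16.9, against 0.490 to 3.26 in the other 11 libraries, and its smooth muscle sum was 888 against 324 to 665. For some genes and lists the results are given with and without this library. The markers of ovary were present in every library, with a granulosa marker sum of 630 to 1583 and an oocyte marker sum of 14.7 to 27.4. Summed theca markers were 106 to 139 FPKM in Control, 1683 to 3183 in PCOS and 76.8 to 205 in PCOS-MV libraries. Cyp17a1 and Insl3 carried that sum, and 3 of the 5 theca markers were called higher and 1, Ptch1, lower in the PCOS group. Summed luteal markers were 4279 to 8015, 1828 to 3467 and 2961 to 6929 FPKM. In whole tissue, fewer cells of a type and less RNA per cell cannot be told apart.

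Across the 12 libraries the mean level ran from Vcan at 45.0 FPKM through Cd44 at 11.8, Ptx3 at 7.63, Tnfaip6 at 2.09, Ereg at 1.12, Btc at 0.710 and Areg at 0.531 to Has2 at 0.251. The 5 members that averaged 1 FPKM or more (Vcan, Cd44, Ptx3, Tnfaip6 and Ereg) entered the test across genes, limma on log2(FPKM + 1) with Benjamini-Hochberg adjustment over 13430 genes. Has2, Areg and Btc were below that mean. For them the same fit over all 19730 genes and an exact two-sided permutation test of 4 libraries against 4 are given. The smallest p that this exact test allows is 0.0286, and 24 such tests were made, so it was used as a description of separation only.

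**Figure D1:**
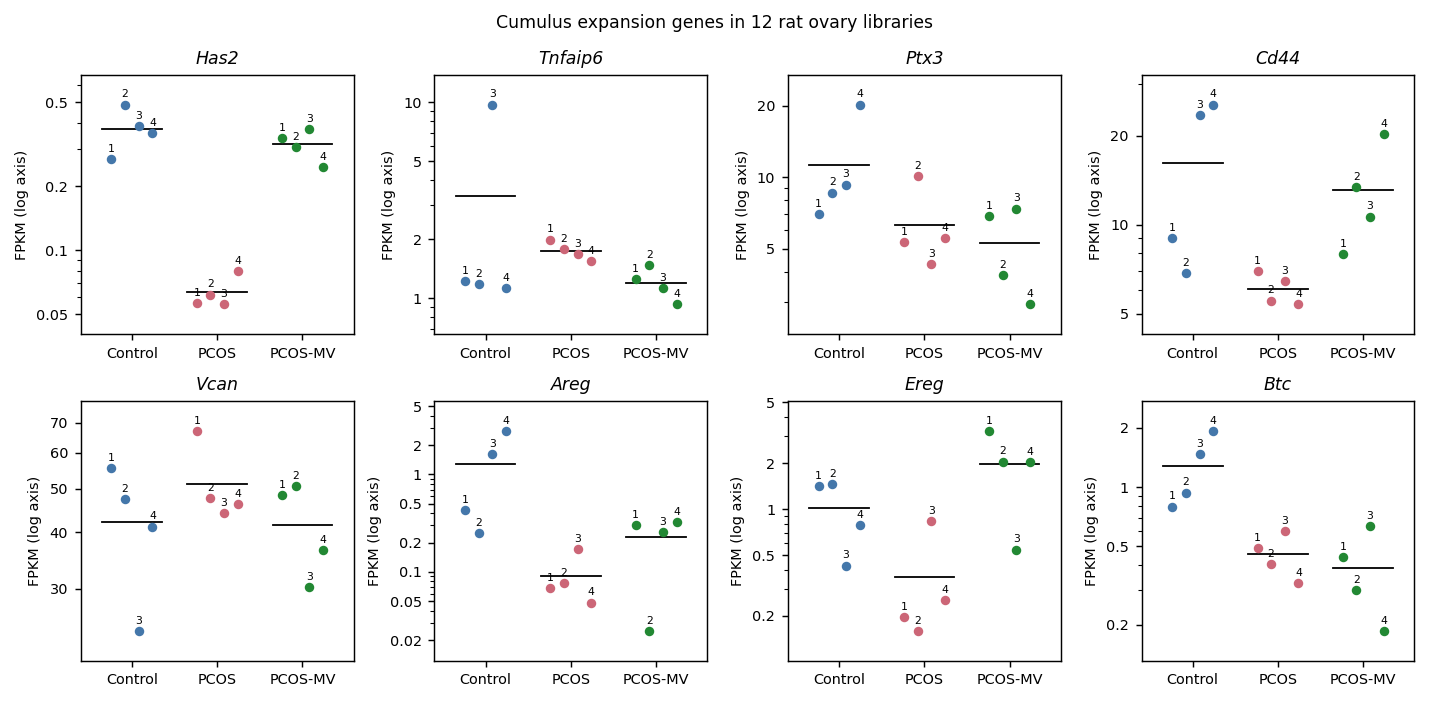
FPKM (log axis) of the 8 genes in each library, with the replicate number above each point and a bar at the group mean. Has2 was lower in all 4 PCOS libraries than in every other library, and the Control mean of Tnfaip6 was carried by replicate 3 at 9.76 FPKM.

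In the comparison of the PCOS with the Control group, which asks how the model changed these genes, 7 of the 8 had a lower mean in the PCOS group and Vcan had a higher one. None of the 5 tested genes was called by limma, against 27.4% of all genes tested, and 2 of them had an unadjusted p under 0.05. In the fit without the filter on the mean, 2 of 8 were called (Has2 and Btc), against 19.4% of all genes. In that fit 5 of 8 had an unadjusted p under 0.05. For the counts by unadjusted p, here and in the last comparison below, no share over all genes is given. That share is at least as large as the share called. For Has2, Areg and Btc, 3 of the 8 genes, the PCOS libraries did not overlap with the Control libraries, as was the case for 25.2% of all genes. In a fit chosen after seeing the data, with a pseudocount of 0.1 and no filter, the same 3 genes were called, against 20.3% of all genes.

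In the comparison of the PCOS-MV with the PCOS group, which asks what changed after MV, 3 of the 5 tested genes were called by limma, against 25.7% of all genes tested. Cd44 and Ereg rose, against 14.3% of genes called higher, and Tnfaip6 fell, against 11.4% called lower. Without the filter 3 of 8 genes were called (Has2, Cd44 and Tnfaip6), against 17.9% of all genes, and with a pseudocount of 0.1 and no filter 2 were called (Has2 and Cd44), against 18.4%. The groups did not overlap for Has2, Cd44 and Tnfaip6, as for 23.9% of all genes. The PCOS libraries enter both comparisons, so the values of the 2 comparisons are not independent of each other.

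In the comparison of the PCOS-MV with the Control group, none of the 5 tested genes was called by limma, against 0.00745% of genes tested, and 1 had an unadjusted p under 0.05. Btc was the gene whose groups did not overlap here, against 4.93% of all genes.

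**Figure D2:**
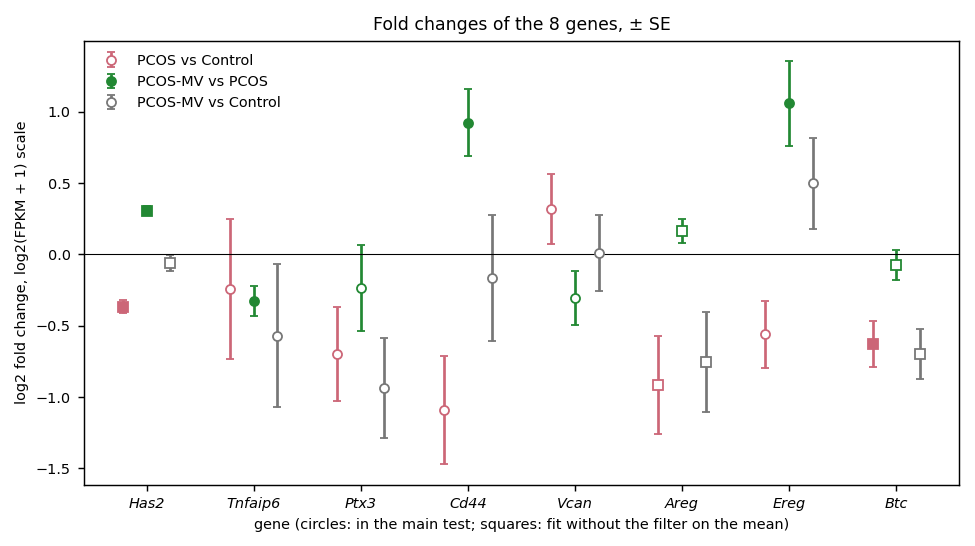
Log2 fold change on the log2(FPKM + 1) scale with its SE, for each gene in the 3 comparisons. Circles are genes in the main limma test, squares are genes under a mean of 1 FPKM taken from the fit without the filter, and filled symbols have an adjusted p under 0.05. Cd44 (0.92) and Ereg (1.06) were the genes that rose in the PCOS-MV group, and Has2 fell in the PCOS group and rose in the PCOS-MV group.

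Has2 (ENSRNOG00000004854, chromosome 7, 96438046 to 96464049, minus strand, in the coordinates of the authors' file, whose build was not given in the sources used here) makes the hyaluronan chains of the expanded cumulus. Its level was 0.268, 0.487, 0.385 and 0.358 FPKM in the Control libraries. In the PCOS libraries it was 0.0564, 0.0617, 0.0555 and 0.0795 FPKM, and in the PCOS-MV libraries 0.338, 0.307, 0.374 and 0.247 FPKM. Every PCOS library lay below every other library, and the Control and PCOS-MV libraries overlapped.

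The PCOS mean of Has2 was 0.0633 ± 0.0111 FPKM (SD, n = 4), 0.169 times the Control mean of 0.374 ± 0.0901 FPKM. The PCOS-MV mean, 0.317 ± 0.0540 FPKM, was 5.0 times the PCOS mean. In limma without the filter the log2 fold change was -0.37 (SE 0.0453, adjusted p = 0.00175) in the PCOS group against Control and 0.31 (SE 0.0291, adjusted p = 0.00117) in the PCOS-MV group against PCOS. Both are compressed by the pseudocount of 1. With a pseudocount of 0.1 they were -1.52 (adjusted p = 0.000708) and 1.34 (adjusted p = 0.000767). At the estimated depth these levels stand for about 7.07 to 12.1 fragments per PCOS library, 37.3 to 68.4 per Control library and 35.8 to 58.3 per PCOS-MV library. Has2 was thus measured on few fragments in the PCOS group. The difference between the PCOS-MV and Control groups was -0.06 on the log2 scale (SE 0.0535, adjusted p = 0.742). The theca and granulosa marker sums were higher in these PCOS libraries than in the Control libraries. The luteal, fibroblast, endothelium, adipocyte and ciliated oviduct sums were lower, and the other sums overlapped. Of 6 tested luteal markers, 4 were called lower and 1, Lhcgr, higher. The fibroblast and stroma list was split, with 3 of 6 tested markers called lower and 2, Pdgfra and Tcf21, higher. In the endothelium list 3 of 4 tested markers were called lower and 1, Vwf, higher. Between the PCOS and PCOS-MV libraries the granulosa, luteal and fibroblast sums overlapped. The endothelium sum did not, at 74.9 to 92.7 FPKM in Control, 48.4 to 58.9 in PCOS and 66.3 to 89.6 in PCOS-MV libraries. After MV, 2 of its 4 tested markers were called higher and 0 lower. The theca sum and the surface epithelium and mesothelium sum were lower in all PCOS-MV than in all PCOS libraries. In the latter list 1 of 5 tested markers, Lrrn4, was called lower and 0 higher. The part of these cell types in the Has2 result was not tested.

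Tnfaip6 (ENSRNOG00000050792, chromosome 3, 37545238 to 37564699, plus strand) encodes a hyaluronan-binding protein that moves the heavy chains of inter-alpha-inhibitor onto hyaluronan. Its Control libraries held 1.22, 1.19, 9.76 and 1.13 FPKM, its PCOS libraries 2.0, 1.79, 1.69 and 1.54 FPKM, and its PCOS-MV libraries 1.25, 1.48, 1.12 and 0.930 FPKM. Control replicate 3 was 7.98 times the next Control library, and the other 3 Control libraries lay below all 4 PCOS libraries.

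With all Control libraries the log2 fold change of Tnfaip6 in the PCOS group was -0.24 (SE 0.490, adjusted p = 0.749). Without Control replicate 3 its sign turned, to 0.33 (SE 0.102, adjusted p = 0.0415). In the PCOS-MV group it fell against PCOS by 0.33 on the log2 scale (SE 0.104, adjusted p = 0.0492), and each PCOS-MV library lay below each PCOS library (exact permutation p = 0.0286). This call sat at the threshold: it was kept in 1 of the 8 fits that left out a library, the one without PCOS-MV replicate 2 (adjusted p = 0.0377), and the adjusted p was up to 0.110 in the others. The adjusted p was 0.0530 with a pseudocount of 0.1 and 0.620 in 1 model for all 12 libraries.

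Some other genes of the LH surge were also highest in Control replicate 3, while Has2, Ptx3, Areg and Ereg were not. Pgr, the progesterone receptor that granulosa cells express for a few hours after the LH surge, was at 13.0 FPKM there and at 0.0903 to 0.567 FPKM in the other 11 libraries. Ptgs2, which makes the prostaglandins needed for expansion, was at 1.76 FPKM against 0.0805 to 0.284. Edn2, an endothelin of the rupturing follicle, named after its values were seen, was at 24.4 FPKM in replicate 3 and 20.3 in Control replicate 4, and at 0.0127 to 6.39 elsewhere. The ciliated oviduct and smooth muscle sums were highest in the same library, and so was Krt19 (70.8 FPKM, against 2.21 to 21.2). The whole list of 5 surface epithelium and mesothelium markers that holds Krt19 summed to 139 FPKM there and to 36.4 to 205 in the other libraries, with the highest sums in PCOS libraries. The part of these markers in the Tnfaip6 level of this library was not tested.

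**Figure D3:**
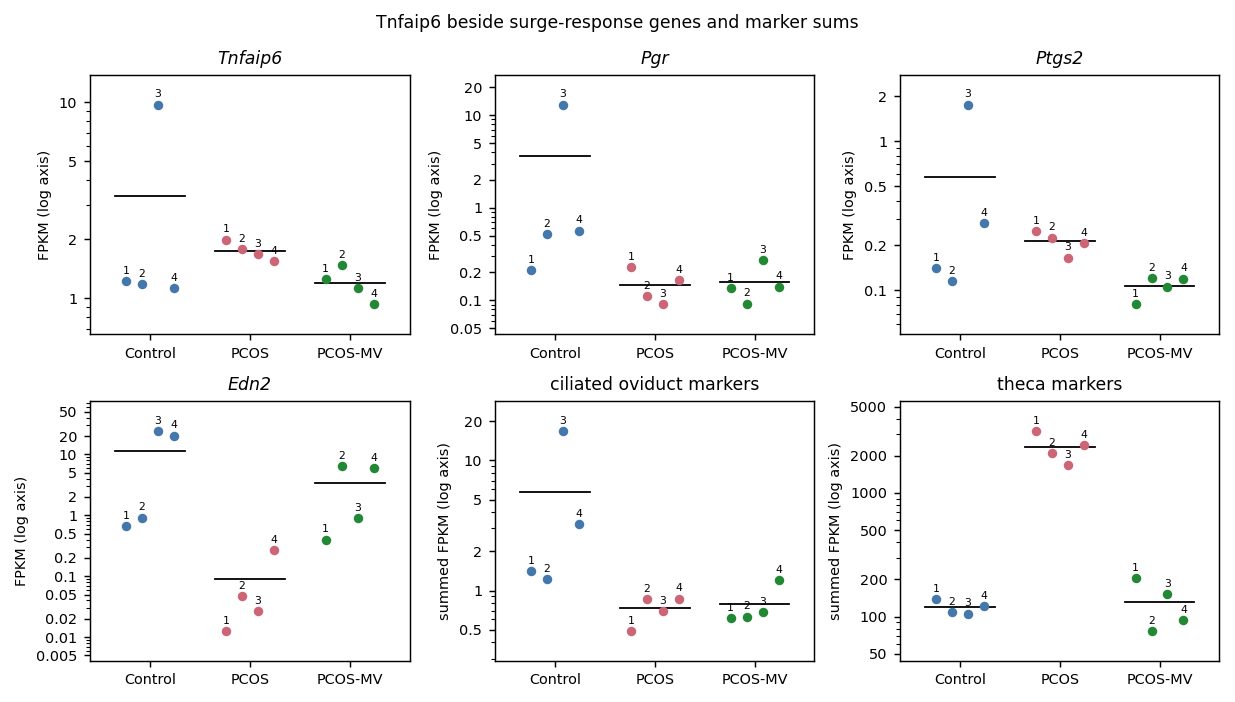
FPKM, or summed FPKM for marker lists, on log axes for each library, with replicate numbers and group means. Control replicate 3 stood above the other libraries for Tnfaip6, Pgr, Ptgs2 and the ciliated oviduct markers (16.9), while Edn2 was also high in Control replicate 4, and theca markers were high in the 4 PCOS libraries (1683 to 3183).

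Above the start of Tnfaip6, the RefSeq window (GRCr8, chr3:56911148-56911397, plus strand) holds 1 match to the AP-1 motif TGANTCA, at -192 to -186 from the gene's start. It is shown because AP-1 and cAMP response elements (CRE) are the sites through which the surge is known to act. Promoter windows were found for 6 of the 8 genes, and for Has2 and Ereg none was used here. Motifs were searched on both strands of the whole window of 300 bases, and the 250 bases before the start are printed here, 5′ to 3′ on the gene's strand, with the match in capitals.
Tnfaip6: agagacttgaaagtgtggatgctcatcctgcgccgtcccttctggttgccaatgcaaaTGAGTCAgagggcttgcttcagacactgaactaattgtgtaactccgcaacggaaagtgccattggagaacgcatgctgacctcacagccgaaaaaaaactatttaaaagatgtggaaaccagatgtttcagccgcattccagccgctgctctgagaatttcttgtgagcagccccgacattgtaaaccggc
The motif TGANTCA is in 7.33% of all 33469 windows of this length. Tnfaip6 was the member that held it.

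Ptx3 (ENSRNOG00000012280, chromosome 2, 158097843 to 158103653, plus strand) encodes the long pentraxin that ties the hyaluronan heavy chains together. Its level was 7.0, 8.63, 9.33 and 20.3 FPKM in the Control libraries, 5.32, 10.1, 4.31 and 5.56 FPKM in the PCOS libraries and 6.89, 3.88, 7.39 and 2.92 FPKM in the PCOS-MV libraries. Control replicate 4 was the highest of the 12, and the 3 groups overlapped. The log2 fold change was -0.70 (SE 0.327, adjusted p = 0.149) in the PCOS group and -0.24 (SE 0.301, adjusted p = 0.599) in the PCOS-MV group against PCOS. Against Control it was -0.94 in the PCOS-MV group (SE 0.352, adjusted p = 0.556). The last had an unadjusted p of 0.0279 in limma and an exact permutation p of 0.0571.

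Cd44 (ENSRNOG00000006094, chromosome 3, 92696313 to 92783658, minus strand, 3 transcripts listed) encodes the receptor by which cumulus cells and leukocytes hold on to hyaluronan. The Control libraries held 9.01, 6.89, 23.4 and 25.5 FPKM, the PCOS libraries 6.99, 5.55, 6.44 and 5.38 FPKM, and the PCOS-MV libraries 7.97, 13.4, 10.7 and 20.2 FPKM. Control replicates 3 and 4 lay far above replicates 1 and 2, and Control replicate 2 was below PCOS replicate 1, so those groups overlapped. All 4 PCOS-MV libraries were above all 4 PCOS libraries.

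Against Control, the log2 fold change of Cd44 in the PCOS group was -1.09 (SE 0.381, adjusted p = 0.0643). It was called without Control replicate 1 (-1.29, adjusted p = 0.0472) and without Control replicate 2 (-1.40, adjusted p = 0.0192), the lower Control libraries. These were the 2 of 8 fits leaving out a library in which it was called. Without Control replicate 3 it was -0.86 (adjusted p = 0.120), and the adjusted p reached 0.140 among the 8 fits. Against PCOS, Cd44 rose by 0.92 in the PCOS-MV group (SE 0.236, adjusted p = 0.0218, exact permutation p = 0.0286), from a mean of 6.09 ± 0.760 to 13.1 ± 5.25 FPKM (SD, n = 4), or 2.15 times. The call was kept in 5 of 8 fits that left out a library. It was lost without PCOS replicate 2 (0.0589), PCOS replicate 4 (0.0622) or PCOS-MV replicate 2 (0.0533) by adjusted p, and in 1 model for all 12 libraries (adjusted p = 0.0990). Leukocyte marker sums overlapped between the groups, at 48.1 to 68.4 FPKM in Control, 62.8 to 71.0 in PCOS and 57.6 to 72.4 in PCOS-MV. Of 6 tested leukocyte markers, 1 was called higher and 2 lower after MV. The macrophage marker Cd68 rose in the same comparison, from 8.82 to 11.5 FPKM in PCOS to 15.2 to 20.2 FPKM in PCOS-MV libraries (log2 fold change 0.77, adjusted p = 0.00266). The macrophage markers Csf1r (-0.33, adjusted p = 0.0196) and Adgre1 (-0.68, adjusted p = 0.00738) fell. Among the Control libraries Cd68 was at 21.0, 21.2, 11.7 and 8.21 FPKM, in the opposite order to Cd44. The part of leukocytes in the Cd44 result was not tested.

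The window before the start of Cd44 (GRCr8, chr3:109699425-109699674, minus strand) is printed as that of a member called in the test. It held none of the 3 motifs searched.
Cd44: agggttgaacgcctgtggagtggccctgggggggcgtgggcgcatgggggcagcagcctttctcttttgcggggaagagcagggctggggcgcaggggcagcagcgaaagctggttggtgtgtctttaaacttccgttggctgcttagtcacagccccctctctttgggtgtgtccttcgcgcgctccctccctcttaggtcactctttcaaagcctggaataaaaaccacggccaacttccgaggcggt

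Vcan (ENSRNOG00000029212, chromosome 2, 18490102 to 18565842, minus strand, 4 transcripts listed) was the most abundant of the 8. Versican is made by granulosa cells and also by stroma and smooth muscle. Its level was 55.6, 47.4, 24.2 and 41.2 FPKM in the Control libraries, 67.1, 47.6, 44.1 and 46.2 FPKM in the PCOS libraries and 48.4, 50.7, 30.3 and 36.6 FPKM in the PCOS-MV libraries. Control replicate 3 was lowest and PCOS replicate 1 highest, and the groups overlapped. The log2 fold change was 0.32 (SE 0.245, adjusted p = 0.370) in the PCOS group, -0.31 (SE 0.190, adjusted p = 0.270) in the PCOS-MV group against PCOS, and 0.01 (SE 0.264, adjusted p = 0.993) against Control. Its ratio of means was 1.22 in the first comparison and 0.810 in the second. One of its 2 promoter windows held the half-CRE TGACG 2 times, at -46 to -42 and -27 to -23, a motif present in 21.2% of all windows.

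Areg, Ereg and Btc lie side by side on chromosome 14. In the authors' coordinates they span 18231860 to 18591394, 360 kb, within which no other gene is listed, with Areg 249 kb from Btc and 45.2 kb from Ereg. All 3 encode membrane precursors from which the soluble factor is shed. Their mean was lower in the PCOS group than in Control for each, at 0.0715 times for Areg, 0.355 times for Ereg and 0.354 times for Btc. In the PCOS-MV group they parted: Ereg was at 5.43 times the PCOS mean and Areg at 2.48 times, whereas Btc was at 0.854 times.

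Areg (ENSRNOG00000002754, 18521930 to 18531179, minus strand) encodes amphiregulin, which the LH surge induces in granulosa cells. It was at 0.428, 0.249, 1.62 and 2.80 FPKM in the Control libraries, 0.0685, 0.0762, 0.172 and 0.0486 FPKM in the PCOS libraries, and 0.303, 0.0249, 0.254 and 0.323 FPKM in the PCOS-MV libraries. Control replicates 3 and 4 were highest, and every PCOS library was below every Control library (exact permutation p = 0.0286). Without the filter, limma gave -0.91 (SE 0.342, adjusted p = 0.111) in the PCOS group, and with a pseudocount of 0.1 it gave -2.40 (adjusted p = 0.0435). In the PCOS-MV group against PCOS the fold change was 0.16 (SE 0.0843, adjusted p = 0.238). PCOS-MV replicate 2 was the lowest of all 12 libraries. These values rest on an estimated 2.02 to 5.97 fragments per PCOS library, 0.977 to 12.8 per PCOS-MV library and 9.55 to 106 per Control library. The PCOS-MV and PCOS libraries overlapped through PCOS-MV replicate 2.

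The window before the start of Areg (GRCr8, chr14:17265642-17265891, minus strand) holds the full CRE TGACGTCA, in capitals, at -91 to -84. The motif reads the same on both strands and includes the half-site TGACG on each.
Areg: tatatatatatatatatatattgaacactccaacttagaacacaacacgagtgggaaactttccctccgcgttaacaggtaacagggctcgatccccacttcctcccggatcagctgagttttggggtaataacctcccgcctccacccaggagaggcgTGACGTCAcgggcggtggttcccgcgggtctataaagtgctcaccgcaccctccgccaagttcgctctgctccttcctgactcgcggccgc
The full CRE is in 1.83% of all 33469 windows, and among the 6 members with a window Areg was the one with a match. A match in a window is a description of its letters and not a measured site.

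Ereg (ENSRNOG00000002771, 18576355 to 18591394, minus strand) encodes epiregulin, which binds both the EGF receptor and Erbb4. Its Control libraries held 1.41, 1.46, 0.427 and 0.786 FPKM, its PCOS libraries 0.196, 0.160, 0.837 and 0.254 FPKM, and its PCOS-MV libraries 3.25, 2.04, 0.543 and 2.03 FPKM. PCOS replicate 3 stood above the other PCOS libraries and replicate 3 of the Control and PCOS-MV groups was the lowest in each, so the groups overlapped. Ereg rose by 1.06 in the PCOS-MV group against PCOS (SE 0.297, adjusted p = 0.0312), while the exact permutation p was 0.0571. The call was kept in 2 of 8 fits that left out a library, those without PCOS replicate 3 (adjusted p = 0.0330) and without PCOS-MV replicate 3 (adjusted p = 0.00309), and adjusted p reached 0.080 in the others. Without the filter on the mean it was 0.0576, and with a pseudocount of 0.1 the fold change was 2.15 (adjusted p = 0.0262). In the PCOS group against Control the fold change was -0.56 (SE 0.233, adjusted p = 0.109), without Control replicate 3 it was -0.72 (adjusted p = 0.0328), and with a pseudocount of 0.1 it was -1.36 (adjusted p = 0.1004). The PCOS-MV and Control groups differed by 0.50 (SE 0.318, adjusted p = 0.664).

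Btc (ENSRNOG00000002728, 18231860 to 18272484, plus strand) encodes betacellulin. It was at 0.797, 0.939, 1.47 and 1.93 FPKM in the Control libraries, 0.489, 0.407, 0.60 and 0.327 FPKM in the PCOS libraries and 0.441, 0.299, 0.631 and 0.186 FPKM in the PCOS-MV libraries. Both letrozole groups lay wholly below the Control libraries, and they overlapped with each other. Adipocyte marker sums were split in the same way, at 5.27 to 36.1 FPKM in Control, 0.691 to 3.85 in PCOS and 1.09 to 2.03 in PCOS-MV libraries, and both tested markers of the 4 (Adipoq and Cidec) were called lower in the PCOS group. Ciliated oviduct sums were also higher in all Control libraries, at 1.23 to 16.9 FPKM, against 0.490 to 0.868 in PCOS and 0.610 to 1.21 in PCOS-MV. The part of these tissues in the Btc result was not tested. In limma without the filter, Btc fell in the PCOS group by 0.63 on the log2 scale (SE 0.159, adjusted p = 0.0313). The PCOS-MV group differed from PCOS by -0.07 (SE 0.105, adjusted p = 0.676) and from Control by -0.70 (SE 0.175, adjusted p = 0.518, exact permutation p = 0.0286). The latter was not called, in a comparison in which 1 of 13430 genes was.

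The 8 genes did not share 1 pattern among the Control libraries. For Ptx3, Areg, Btc and Cd44, 4 of the 8 genes, Control replicates 3 and 4 were the 2 highest Control libraries, as they were for 25.2% of the genes tested. After group means were removed, Areg went with Btc over the 12 libraries (Pearson r = 0.81, Spearman rho = 0.67, and r = 0.66 without Control replicates 2 and 4) and with Cd44 (r = 0.80, rho = 0.72, and r = 0.62 without the same libraries). Ptx3 went with Btc (r = 0.68, rho = 0.66, and r = 0.66 without Control replicate 4 and PCOS replicate 2). Tnfaip6 and Vcan had r = -0.62 but rho = -0.09, and r = 0.75 without Control replicates 3 and 4, so the negative value rested on those. These are descriptions over 28 pairs, and libraries share depth and tissue makeup.

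The genes most like each tested member, by the same r with group means removed, were as follows. Each was picked for the highest r among all tested genes with a symbol, so a high r is built into the choice. Leaving out 1 of the same 12 libraries is therefore no separate check of a high r. Tnfaip6 was closest to Rasd2 (r = 0.99), Gad2 (0.99) and A2ml1 (0.98), which without Control replicate 3 fell to 0.72, 0.13 and -0.11. Cd44 was closest to Rchy1 (0.95), Kdm6a (0.94) and Chst7 (0.94). Vcan was closest to Cdkn3 (0.97), Incenp (0.97) and Haus6 (0.96), which were at 0.94, 0.97 and 0.93 without Control replicate 3. Ptx3 was closest to Myom2 (0.90), Ankh (0.90) and Gpank1 (0.88), and Ereg to Npm1 (0.90), Stk11ip (0.90) and Napepld (0.89).

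The other ligands and the receptors of the same signal were read from lists. Of 7 other EGF-family ligands, 4 were tested. Hbegf, heparin-binding EGF, fell in the PCOS group by 1.89 on the log2 scale (SE 0.301, adjusted p = 0.00217) and rose by 1.43 in the PCOS-MV group (SE 0.364, adjusted p = 0.0217). Its levels were 4.19 to 13.8 FPKM in Control, 1.05 to 1.88 in PCOS and 2.54 to 12.7 in PCOS-MV libraries, above those of the 3 members within each library. In the first comparison 1 of 4 was called lower, against 15.6% of all genes, and 0 higher, against 11.9%. In the second, 2 of 4 were called higher, against 14.3% of all genes, and 0 lower, against 11.4%. The list's median log2 fold change was 0.02 and 0.26, against -0.03 and 0.03 over all genes tested.

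Egfr, the receptor of all 3 members, fell in the PCOS group from 22.0 to 38.9 FPKM to 14.9 to 19.9 FPKM (log2 fold change -0.83, SE 0.169, adjusted p = 0.00716). It rose in the PCOS-MV group to 24.1 to 28.6 FPKM (0.60, SE 0.0970, adjusted p = 0.00306). Lrig1, which marks the receptor for degradation, went the other way, with 5.88 to 12.5, 13.4 to 20.03 and 6.69 to 7.73 FPKM in the 3 groups (0.86, adjusted p = 0.0154, and -1.05, adjusted p = 0.000848). Erbb2 was at 0.783 to 3.20 FPKM and was not called, with a log2 fold change of -0.03 (adjusted p = 0.949) and 0.04 (adjusted p = 0.896). Erbb3 and Erbb4 had means under 1 FPKM, with Erbb3 highest in Control replicate 3 at 2.87 FPKM and Erbb4 at 0.0109 to 0.370 FPKM. Of 8 receptors, sheddases and inhibitors, 6 were tested. In the PCOS group 1 was called higher and 2 lower, against 11.9% and 15.6% of all genes, and after MV 2 were called higher and 2 lower, against 14.3% and 11.4%. The list's median was -0.02 in both comparisons.

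Of the 21 genes listed for hyaluronan synthesis, binding and breakdown, 20 were found and 10 tested. In the PCOS group 4 of the 10 were called lower and 0 higher, against 15.6% and 11.9% of all genes, with a median log2 fold change of -0.54 against -0.03. After MV 4 were called higher and 0 lower, against 14.3% and 11.4%, with a median of 0.34 against 0.03. The list had 5 called lower without Control replicate 3. Cemip, a hyaluronan-degrading protein, fell by 2.02 in the PCOS group (SE 0.221, adjusted p = 0.000311), from 22.5 to 32.1 FPKM to 4.14 to 9.96 FPKM. It rose by 2.26 in the PCOS-MV group (SE 0.267, adjusted p = 0.000754), to 23.2 to 46.0 FPKM. Acan, the proteoglycan aggrecan, named after its values were seen, went from 34.1 to 131 FPKM to 18.2 to 26.8 FPKM (-1.56, adjusted p = 0.0139) and then to 51.6 to 101 FPKM (1.83, adjusted p = 0.000790). Without Control replicate 3 the first value of Acan was -1.25 (adjusted p = 0.0165). The synthase Has2, a degrading protein and a binding proteoglycan were thus all lower in the PCOS than in the other libraries.

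Of 7 versican-cleaving proteases and their inhibitor, 6 were tested, with 1 called higher and 2 lower in the PCOS group, against 11.9% and 15.6% of all genes, and 2 in each direction after MV, against 14.3% and 11.4%. The list's median was -0.49 and 0.15. Adamts1, the protease that cuts versican in the expanding cumulus, fell by 1.33 (SE 0.298, adjusted p = 0.0112), from 30.8 to 72.8 FPKM to 16.0 to 21.2 FPKM. Without Control replicate 3 it fell by 1.13 (adjusted p = 0.0185). It rose by 1.12 in the PCOS-MV group (SE 0.264, adjusted p = 0.0161), to 27.1 to 64.1 FPKM. Adamts15 went the other way, from 0.791 to 2.58 FPKM to 3.02 to 4.72 FPKM (1.03, adjusted p = 0.00963) and back to 0.835 to 1.35 FPKM (-1.22, adjusted p = 0.000481). Vcan itself was not called in either comparison.

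Of 34 LH-surge response genes, 28 were tested. In the PCOS group 1 was called higher and 8 lower (7 without Control replicate 3), against 11.9% and 15.6% of all genes, with a median of -0.23 against -0.03. After MV 8 were called higher and 5 lower, against 14.3% and 11.4%, with a median of 0.01 against 0.03. Lhcgr, the LH receptor, rose by 1.39 in the PCOS group (SE 0.306, adjusted p = 0.0104) and fell by 1.89 in the PCOS-MV group (SE 0.508, adjusted p = 0.0269). It was at 28.7 to 78.2, 113 to 199 and 15.2 to 97.8 FPKM in Control, PCOS and PCOS-MV libraries, and it is also a gene of theca and luteal cells. Runx2, a transcription factor induced in luteinizing granulosa cells, fell by 2.48 (SE 0.235, adjusted p = 0.000147) and rose by 2.49 (SE 0.243, adjusted p = 0.000338), between 28.7 to 56.3, 5.44 to 10.3 and 30.8 to 55.0 FPKM.

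Pgr and Ptgs2, which are among the short-lived genes of that list, were not called in the PCOS group against Control. Pgr had a log2 fold change of -1.14 (SE 0.702, adjusted p = 0.264), and -0.31 (adjusted p = 0.139) without Control replicate 3, and in the PCOS-MV group against PCOS 0.01 (adjusted p = 0.933). Ptgs2 was under the mean of 1 FPKM. In limma without the filter it fell by 0.13 in the PCOS-MV group against PCOS (SE 0.0238, adjusted p = 0.0109), from 0.166 to 0.251 FPKM to 0.0805 to 0.121 FPKM. Ptgs2 and Tnfaip6 fell in the comparison in which Ereg, Cd44 and Has2 rose.

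Of 10 genes of meiotic arrest and oocyte-secreted factors, 9 were tested, with 2 called higher and 2 lower in the PCOS group, against 11.9% and 15.6% of all genes, and likewise after MV, against 14.3% and 11.4%. The list's median was -0.30 and 0.22. Nppc, whose peptide holds the oocyte in meiotic arrest until the surge, rose by 1.05 in the PCOS group (SE 0.116, adjusted p = 0.000322), from 4.46 to 5.21 FPKM to 9.75 to 14.1 FPKM. It fell by 1.10 in the PCOS-MV group (SE 0.158, adjusted p = 0.00181), to 3.53 to 5.76 FPKM. Gja1, the main connexin of granulosa cells, fell by 1.12 in the PCOS-MV group (SE 0.153, adjusted p = 0.00139), from 419 to 602 FPKM to 203 to 284 FPKM. Impdh1, an enzyme of guanine nucleotide synthesis, fell by 0.98 and then rose by 0.86 (adjusted p = 0.0129 and 0.00631). Summed granulosa markers moved with Nppc and Gja1, at 670 to 936 FPKM in Control, 1107 to 1583 in PCOS and 630 to 1137 in PCOS-MV libraries. Inha, at a mean of 615 FPKM, was the largest part of that sum. Of the 9 markers, 4 were called higher and 0 lower in the PCOS group (1 lower without Control replicate 3). After MV 0 were called higher and 3 lower. Amh (-0.81, then 0.62) and Nr5a2 (-0.77, then 0.65) went the other way without a call. The part of granulosa cells in these results was not tested. None of the genes in the lists was called in the PCOS-MV group against Control, in which limma called 1 gene in all.

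**Figure D4:**
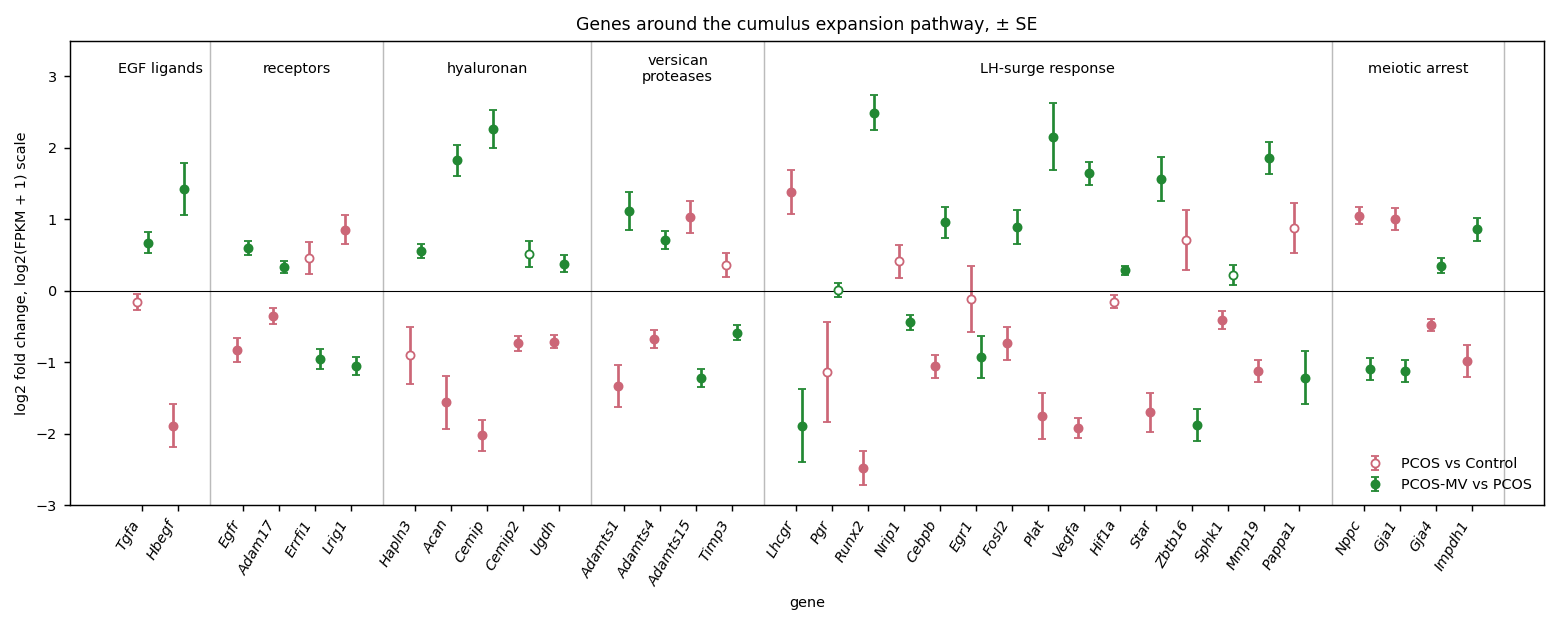
Log2 fold change on the log2(FPKM + 1) scale with its SE for the tested list genes called in at least 1 of the 2 comparisons, and Pgr. Filled symbols have an adjusted p under 0.05, and both comparisons share the PCOS libraries. Hbegf, Egfr, Acan, Cemip, Adamts1 and Runx2 lay below 0 in the PCOS group and above 0 in the PCOS-MV group, whereas Lrig1, Adamts15, Lhcgr, Nppc and Gja1 lay the other way.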

How the data were processed

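Ovarian RNA of 12 rats was sequenced, 4 rats for each of Control, PCOS and PCOS-MV, and each library was placed by its title in the sample labels. According to the methods, the authors removed poor reads, used HISAT2 for alignment and featureCounts for counting, and derived the FPKM that they deposited. The submitters' processing notes name STAR 2.5.1b and HTSeq 0.6.0 instead, and the genome build is not given in the sources used here. The deposited columns of the authors' own comparisons (log2 fold changes and p-values) and of their group means were not used.

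One line per gene was kept, 19730 genes from 26928 transcript lines, since a gene's FPKM did not differ between its lines. The table used holds FPKM and no read counts, so the test was limma 3.58.1 in R 4.3.3 (lmFit, eBayes with trend) on log2(FPKM + 1), groups in pairs, over the 13430 genes that averaged 1 FPKM or more, called at a Benjamini-Hochberg adjusted p under 0.05. The fit was tested on simulated data. An exact permutation test, two-sided, was used for single genes. Fold changes on this scale understate the change of low genes. Depth was estimated from genes with 1 listed transcript: between 53.2% and 60.2% of their values between 0.5 and 1.5 estimated fragments fell within 0.1 of 1, against 20% if spread evenly.

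The 8 genes and the lists around them were chosen with earlier results of these data known. All 8 were named in each comparison, and from each list the largest called rise and fall, with the EGF-family receptors, Lhcgr, Pgr, Ptgs2 and Adamts1. Of 160 list genes, 6 were not matched. Promoter windows are from RefSeq (GRCr8). Alternatives covered the pseudocount, the filter, 1 model for all 12 libraries, the replicate number as a block, rescaling by the median ratio and each library left out. Tables and plots were made with Python 3.11.15, pandas 2.3.3 and scipy 1.17.1.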

Additional observations from a re-analysis of the deposited data

Results flagged for a closer look

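Of 24 groups of 4 libraries examined for the 8 members, 3 held a library far from the other 3. Tnfaip6 was at 9.76 FPKM in Control replicate 3, against 1.13 to 1.22 FPKM in the other Control libraries. Ereg was at 0.837 FPKM in PCOS replicate 3, against 0.160 to 0.254 in the other PCOS libraries. Vcan was at 67.1 FPKM in PCOS replicate 1, against 44.1 to 47.6.

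Over these and the named list genes and marker sums, 11 of 105 groups held such a library, and 5 of the 11 were Control replicate 3. A rate of about 1 in 20 would give 5.25. That rate assumes normally distributed values and independent groups, and groups that share a library are not independent, so it is a rough guide. In that library Pgr was at 13.0 FPKM (0.213 to 0.567 in the other Control libraries), Ptgs2 at 1.76 (0.115 to 0.284), Erbb3 at 2.87 (0.380 to 0.568) and the ciliated oviduct marker sum at 16.9 (1.23 to 3.26). Runx2 was at 10.3 FPKM in PCOS replicate 3 (5.44 to 5.88 in the others). Impdh1 was at 75.9 FPKM in PCOS-MV replicate 1 (53.8 to 54.5). The endothelium marker sum was 89.6 FPKM in PCOS-MV replicate 3 (66.3 to 67.8), and the ciliated oviduct marker sum was 1.21 in PCOS-MV replicate 4 (0.610 to 0.684).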

How the results depend on the processing

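In the PCOS group against Control, 0 of the 5 tested members were called, and 2 of 8 were called with no filter on the mean, 3 with a pseudocount of 0.1 and no filter (added after seeing the data) and 0 to 2 when a library was left out. In the PCOS-MV group against PCOS, 3 were called, and 1 in 1 model for all 12 libraries, 0 with a replicate block and 0 to 2 when a library was left out. The causes were not tested. A fit with a library left out has fewer libraries and also a different set of them, and these were not separated. Over all genes such fits called 2762 to 3915 genes in the PCOS group against Control. In the PCOS-MV group against PCOS they called 2445 to 3354. The correlation of deviations of same-numbered libraries was over 0.1 in 0 of 4 pairs for PCOS against Control, in 1 of 4 for PCOS-MV against Control and in 3 of 4 for PCOS-MV against PCOS (0.10, 0.17, 0.14 and 0.04 for numbers 1 to 4, with the first 3 closest to their own number), so the numbers were not taken to pair rats, though in the last comparison they may. With the replicate block the adjusted p of Cd44, Ereg and Tnfaip6 was 0.0516, 0.0779 and 0.0592, and 2905 and 3079 genes were called over all, against 3684 and 3448. In the PCOS-MV group against Control, 0 members were called under every alternative run. Of the fold changes, 255 of 300 alternatives kept the direction and the side of the threshold or moved by less than 1 SD. Sign changes occurred when a library was left out: Tnfaip6 ranged from -0.44 to 0.33 in the PCOS group against Control while, between PCOS-MV and Control, Tnfaip6 ranged from -0.77 to 0.0057, Cd44 from -0.48 to 0.10 and Vcan from -0.23 to 0.16. The fold changes of the low members Has2, Areg, Btc and Ereg moved with the pseudocount. Intervals of counting error could not be given, since the file holds FPKM.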
